A study of Homo sapiens with 6 samples.

Results

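The genes described here encode the machinery with which a cell receives a Hedgehog signal and passes it inward. They are the receptor PTCH1, the ligand-binding inhibitor HHIP, the co-receptors BOC, CDON and GAS1, the ligand release proteins DISP1 and SCUBE2, the membrane transducer SMO and the GLI-binding inhibitor SUFU. These 9 genes were chosen by name for their place in the pathway, with earlier results of these data known. Each was found among the 25702 genes in the deposited table under a single Entrez gene number. All 9 passed the filter on low values and entered the test with 15622 genes.

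In the absence of ligand, PTCH1 keeps SMO inactive and SUFU holds the GLI transcription factors in the cytoplasm. Binding of a Hedgehog protein to PTCH1 together with a co-receptor releases SMO, which frees the GLI factors to enter the nucleus. PTCH1 and HHIP are themselves textbook targets of GLI factors, so that the pathway induces its own inhibitors. In developing muscle, Hedgehog signals promote the commitment of early myogenic cells, and CDON and BOC also act as cell surface proteins of myoblast differentiation.

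RNA was sequenced from RMS13, an established human rhabdomyosarcoma line, a tumour with skeletal muscle features, known to carry extra copies of GLI1. One group was transfected with an siRNA against GLI1 (siGLI1) and the other with a non-targeting siRNA (siNT2), with 3 libraries in each and 72 h of knockdown. All 6 libraries come from this 1 line grown in serum, and the labels name no Hedgehog ligand or inhibitor among the treatments. Whether the libraries of a group came from separate cultures is not stated. The p-values therefore speak for variation among the 6 libraries alone, some or all of it possibly technical.

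Values are normalised read counts, the deposited unit, and 1 recovered read was worth 0.797 to 1.10 of that unit. Libraries held 13673977 to 18947614 reads. The targeted gene, GLI1, stood at 11962, 17837 and 12774 in siNT2 and at 579.9, 906 and 1274 in siGLI1, a siGLI1 mean of 6.48% of the siNT2 mean. The muscle factor genes MYOD1 and MYOG had means of 17462 and 10652 in siNT2 and 17142 and 12589.7 in siGLI1, neither called, and 8 of the 9 muscle markers examined averaged 10 or more. Summed over those markers the range was 47593 to 57734 in siNT2 and 72123 to 105609.8 in siGLI1. Without ACTC1, the sums were 34318 to 44732 and 41992 to 56665, which overlap. The sums were 81.0 to 124 over 6 epithelial markers, 39.1 to 81.0 over 5 blood markers and 208 to 485 over 6 neural markers in any library, and 22.3 to 32.9 in siNT2 against 98.1 to 104 in siGLI1 over 4 endothelial markers. PECAM1 alone made up that difference, at means of 10.99 and 86.3, and the other 3 summed to 14.2 to 19.8 in siNT2 and 12.8 to 16.4 in siGLI1. Libraries of 1 group also differed along the GC content of genes. In siNT2 replicate 2 and siGLI1 replicate 3, GC-rich genes lay above their group mean, with rank correlations across genes between GC content and deviation of 0.69 and 0.74. In the other 4 libraries the correlation ran from -0.69 to -0.31.

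PTCH1 and HHIP were lower and CDON, DISP1 and SCUBE2 higher in siGLI1 cells, while BOC, GAS1, SMO and SUFU did not pass the test. The test was limma on log2(value + 1) over all 15622 genes, with a Benjamini-Hochberg adjusted p under 0.05 as the call, and each fold change is the siGLI1 mean less the siNT2 mean on that scale. Of the 9 genes, 5 were called, against a background of 15.2% of all genes tested. By direction, 3 were called higher against a background of 7.21%, and 2 lower against 8.0%. The genes were chosen with earlier results of these data known, so these shares are description and not a test of the group. The median log2 fold change of the 9 genes was 0.17, and that of all genes tested was -0.01. The siNT2 and siGLI1 values did not overlap in 6 of the 9 genes, against 36.2% of all genes. They lay wholly below siNT2 in 3, against 18.8%, and wholly above in 3, against 17.4%. In bulk RNA, fewer expressing cells and less RNA per cell cannot be told apart.

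**Figure D1:**
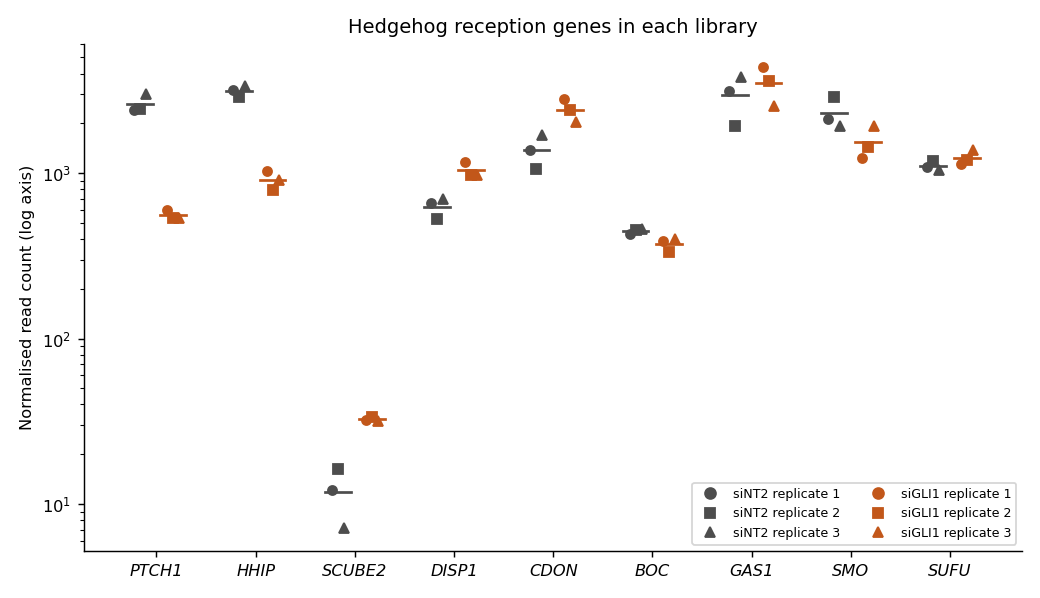
Normalised read count (log axis) of the 9 genes in each of the 6 libraries. Symbols mark the replicate number, grey the siNT2 and orange the siGLI1 libraries, and bars the group means. PTCH1 and HHIP show the widest downward gaps, SCUBE2 stands far below the other genes in both groups, and GAS1, SMO and SUFU have overlapping groups.

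The promoter sequences of PTCH1 and HHIP, the 2 genes that fell, are shown because GLI factors bind the consensus GACCACCCA. That motif was searched on both strands in the RefSeq promoter windows (build GRCh38.p14) of all 9 genes, each running from 250 bases before a transcription start to 50 after it. PTCH1 had 5 such windows for its alternative starts, and 1 of them, at chr9:95509217-95509516 on the minus strand, held the motif, which begins 172.0 bases before the start. It lies on the opposite strand and therefore reads TGGGTGGTC, in capitals below. The HHIP window at chr4:144645906-144646205 on the plus strand had no copy, and 1 of the 19 windows of the 9 genes held it in all, which says only that these letters are not in those windows. Of all 35116 promoter windows 0.236% held the motif, and of the 11433 tested genes with a window 0.359% did.
PTCH1: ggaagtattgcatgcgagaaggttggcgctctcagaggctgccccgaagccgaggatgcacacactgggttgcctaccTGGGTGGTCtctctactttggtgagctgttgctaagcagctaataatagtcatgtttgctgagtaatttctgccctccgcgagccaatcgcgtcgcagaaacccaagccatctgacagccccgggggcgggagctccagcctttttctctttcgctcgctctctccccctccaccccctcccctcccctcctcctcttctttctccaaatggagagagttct
HHIP: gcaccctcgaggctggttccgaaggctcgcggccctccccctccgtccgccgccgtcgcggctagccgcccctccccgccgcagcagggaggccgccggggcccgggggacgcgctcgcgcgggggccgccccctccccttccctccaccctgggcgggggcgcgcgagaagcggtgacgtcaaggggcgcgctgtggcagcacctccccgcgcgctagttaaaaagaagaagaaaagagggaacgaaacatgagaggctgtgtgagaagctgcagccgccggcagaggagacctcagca

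PTCH1, the Hedgehog receptor, read 2404, 2425 and 3006 in siNT2 and 602, 534 and 533 in siGLI1. Every siGLI1 library was below every siNT2 library, and the 3 siGLI1 values lay within 1.13-fold of each other. The mean went from 2611 ± 341 to 556 ± 39.3 (SD, n = 3 per group), which left 21.3%. PTCH1 fell by 2.22 on the log2 scale (95% interval -2.56 to -1.89, limma adjusted p = 0.000277), and 0.525% of all genes tested had a change as low or lower. The window with the GLI motif does not show which of its 5 starts the reads came from, since the table has 1 value per gene. RefSeq places the noncoding gene LOC100507346 over PTCH1 by the span of the genes, and whether their exons overlap was not examined. Whether the authors counted by strand is not given in the sources used here. It is therefore not known whether reads of one gene were counted for the other. LOC100507346, named after its values were seen, read 108, 113 and 124 in siNT2 and 16.2, 14.3 and 15.8 in siGLI1. Its log2 fold change was -2.81 (limma adjusted p = 0.000322), and its level is small beside that of PTCH1.

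HHIP, which binds Hedgehog proteins at the cell surface and withholds them from PTCH1, read 3160, 2890.5 and 3343 in siNT2 and 1032, 792 and 906 in siGLI1. The groups were again fully apart. The mean went from 3131 ± 228 to 910.1 ± 120.1 (SD, n = 3 per group), which left 29.1%. HHIP fell by 1.79 (95% interval -2.12 to -1.45, limma adjusted p = 0.000596), and 0.967% of all genes tested had a change as low or lower. The calls of PTCH1 and HHIP held in all 17 alternative fits, including each of the 6 that left out 1 library.

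**Figure D2:**
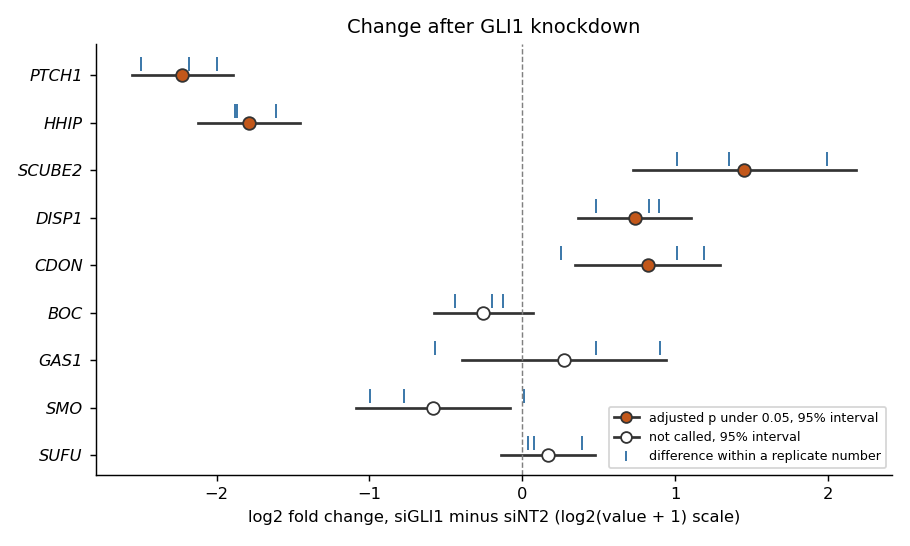
Log2 fold change of each of the 9 genes (siGLI1 minus siNT2, log2(value + 1) scale) with its 95% interval from limma. Orange points passed an adjusted p of 0.05, white points did not, and blue ticks give the siGLI1 minus siNT2 difference between libraries with the same replicate number. The ticks of GAS1 and SMO fall on both sides of 0, those of the other genes on 1 side.

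The ligand release genes were both higher after the knockdown, at very different levels. DISP1, a transporter-like membrane protein that releases cholesterol-bearing Hedgehog proteins from the cells that make them, read 658, 527 and 694 in siNT2 and 1172, 980.4 and 969 in siGLI1. All siGLI1 values were above all siNT2 values. DISP1 rose by 0.74 (95% interval 0.37 to 1.11, limma adjusted p = 0.0217), from 626 ± 87.5 to 1040.3 ± 113.9 (SD, n = 3 per group). The rise was no longer called without siNT2 replicate 1 (limma adjusted p = 0.0789), siNT2 replicate 2 (0.0525), siGLI1 replicate 1 (0.0645) or siGLI1 replicate 2 (0.0912).

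SCUBE2, a secreted protein that takes up the released ligand, was near the limit of detection in control cells. It read 12.1, 16.2 and 7.18 in siNT2 and 32.4, 33.7 and 31.6 in siGLI1, which were 9 to 33 recovered reads. The 3 siGLI1 values were close together and all above the siNT2 values, which spread 2.26-fold. SCUBE2 rose by 1.45 (95% interval 0.72 to 2.19, limma adjusted p = 0.0217), and by 1.06 with a pseudocount of 8, since at this level the fold depends on the pseudocount. It did not pass when siNT2 replicate 1 was left out (limma adjusted p = 0.0734), nor without siGLI1 replicate 1 (0.0507) or siGLI1 replicate 2 (0.103).

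The 3 co-receptors, which bind Hedgehog proteins beside PTCH1, did not share a direction, and 1 of them was called. CDON, an immunoglobulin and fibronectin repeat protein, read 1384, 1058 and 1711 in siNT2 and 2796, 2415 and 2042 in siGLI1. The siNT2 values were all lower than the siGLI1 values, though siNT2 replicate 3 and siGLI1 replicate 3 differed by only 0.26 on the log2 scale. CDON rose by 0.82 (95% interval 0.34 to 1.30, limma adjusted p = 0.0354), to 175% of its siNT2 mean. This call was lost without siNT2 replicate 1 (limma adjusted p = 0.112), siNT2 replicate 2 (0.0737), siGLI1 replicate 1 (0.0884) or siGLI1 replicate 2 (0.139). Of the 8 muscle markers tested, 4 were called higher in the same comparison (DES, CHRNA1, MYMK and ACTC1) and 0 lower, against 7.21% and 8.0% of all genes. The other 4 were not called (MYOD1, MYOG, PAX3 and CHRND). The part of these markers in the CDON result was not tested.

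BOC, the close relative of CDON, did not pass the test. It read 426, 452 and 459 in siNT2 and 389.9, 333 and 400.0 in siGLI1, so that the siGLI1 values were all below the siNT2 values by a narrow margin. Its log2 fold change was -0.25 (95% interval -0.58 to 0.07, limma adjusted p = 0.256). RefSeq places the protein-coding gene CFAP44 partly over BOC, and CFAP44 had means of 241 in siNT2 and 245 in siGLI1. The level of CDON relative to BOC, per kilobase of transcript, was 2.04, 1.47 and 2.35 in siNT2 and 4.51, 4.56 and 3.21 in siGLI1. The ratio was higher in each siGLI1 library than in any siNT2 library (exact two-sided permutation test p = 0.1, the smallest that 3 against 3 libraries can give, and 0.1 after Benjamini-Hochberg adjustment over the 2 ratios tested). With CDON wholly higher and BOC wholly lower in siGLI1, no other order was possible, so the ratio test adds nothing to their values.

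GAS1, a membrane-anchored co-receptor, had the widest spread between libraries of a group after SCUBE2. It read 3135, 1919 and 3789 in siNT2 and 4379, 3589 and 2553 in siGLI1, with the 2 groups interleaved. The spread within siNT2 alone was 1.97-fold, and the log2 fold change of 0.27 had a 95% interval from -0.40 to 0.94 (limma adjusted p = 0.558). Without siNT2 replicate 2 the value was -0.0095. Between libraries of the same replicate number the differences were 0.48, 0.90 and -0.57.

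SMO, the seven-pass membrane protein that PTCH1 restrains, read 2114, 2871 and 1916 in siNT2 and 1238, 1439 and 1933 in siGLI1. Only siGLI1 replicate 3 reached the siNT2 range. The log2 fold change was -0.59 (95% interval -1.09 to -0.08, limma adjusted p = 0.109), and leaving out siGLI1 replicate 3 gave -0.76 (limma adjusted p = 0.0343). SUFU, which binds GLI factors and keeps them from the nucleus, read 1085, 1177 and 1044 in siNT2 and 1143, 1208 and 1371 in siGLI1. Its log2 fold change was 0.17 (95% interval -0.14 to 0.48, limma adjusted p = 0.423), with overlapping groups.

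The values of SMO tightened in both groups, and those of SUFU mainly in siGLI1, once each library's GC trend was removed by lowess. SMO has the highest transcript GC content of the 9 genes, 61.4%, and its highest value in each group was that of the library in which GC-rich genes ran high. With the trend removed SMO stood at 2120, 2123 and 2030 in siNT2 (SD 53.1, from 504 before) and at 1645, 1586 and 1635 in siGLI1 (SD 32.0, from 358), with no overlap. Its log2 fold change was then -0.37 (limma adjusted p = 0.00901). SUFU stood at 1072, 973 and 1085 against 1359, 1301 and 1238, with an SD of 61.4 in siNT2 (from 68.5) and 60.5 in siGLI1 (from 117). For SUFU, siNT2 replicate 2 and siGLI1 replicate 3 were the highest of their groups before the removal and the lowest after it. Whether the removal went too far for SUFU was not tested. Its log2 fold change was then 0.32 (limma adjusted p = 0.0281), which did not pass with the replicate number added as a block (0.0753). This fit called 33.0% of the 14438 genes with a GC value, so a call in it is common. The correction acts on each library's deviation from the mean of all 6, so a GC trend between the groups is removed as well. Leaving out siNT2 replicate 2 and siGLI1 replicate 3, a choice made after seeing the data, gave SMO -0.59 (limma adjusted p = 0.00751) on deposited values.

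With the GC trend removed CDON read 1361, 1157 and 1653 against 2585, 2380 and 2129, and the other 2 genes that rose were called again, at 0.70 for DISP1 and 1.48 for SCUBE2 (limma adjusted p = 0.00146 and 0.00747). GAS1 went the other way. Its GC content is 57.7%, yet it was lowest in the libraries in which GC-rich genes ran high, and its spread was wider after the removal, with an SD of 1227 in siNT2 and 1538 in siGLI1.

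**Figure D3:**
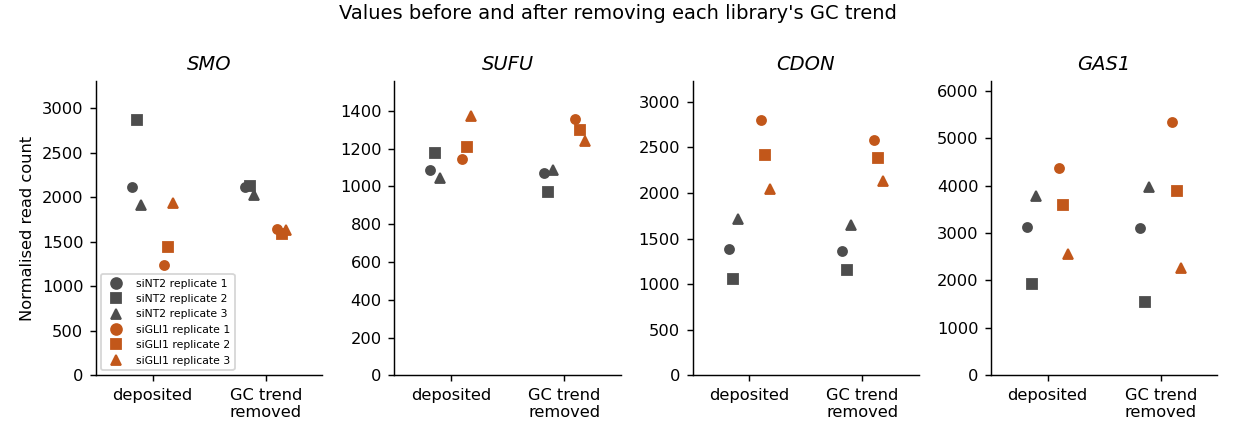
Normalised read count of SMO, SUFU, CDON and GAS1 in each library as deposited and after the GC trend of each library was removed. Axes start at 0, grey marks siNT2, orange siGLI1, and symbols the replicate number. The 2 groups of SMO and of SUFU separate on the right of each panel, CDON is apart in both, and the GAS1 values spread further.

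Levels of different genes were compared per kilobase of each gene's longest annotated transcript. In siNT2 cells the order from the top was GAS1 (1043 ± 336 per kilobase), SMO (615 ± 135), HHIP (311 ± 22.6), PTCH1 (246 ± 32.1), SUFU (220.4 ± 13.7), CDON (151 ± 35.8), DISP1 (132 ± 18.4), BOC (77.5 ± 3.00) and SCUBE2 (2.54 ± 0.974; SD, n = 3). Neighbours in this order whose library values overlapped were GAS1 and SMO, PTCH1 and SUFU, and CDON and DISP1. In siGLI1 cells PTCH1 was eighth, at 52.3 ± 3.70, below BOC at 65.1 ± 6.25 and HHIP at 90.4 ± 11.9 (SD, n = 3). CDON, SUFU and DISP1 followed SMO in that order, at 265, 248 and 218, with the values of CDON and SUFU, and of SUFU and DISP1, overlapping. The place of PTCH1 depends on the length used. With the transcript of the longest coding sequence, PTCH1 was at 324 in siNT2, above HHIP though overlapping with it, and at 69.0 in siGLI1, still eighth.

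PTCH1 was also set against SMO, the protein it restrains. Per kilobase, PTCH1 was 0.40, 0.30 and 0.55 of SMO in siNT2 and 0.17, 0.13 and 0.097 in siGLI1. The siGLI1 ratios were all lower, and the exact two-sided permutation p was 0.1, again the smallest possible here (0.1 after adjustment over the 2 ratios). Whichever libraries of a group are combined, the ratios keep this order, so the test adds nothing to the PTCH1 and SMO values above.

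**Figure D4:**
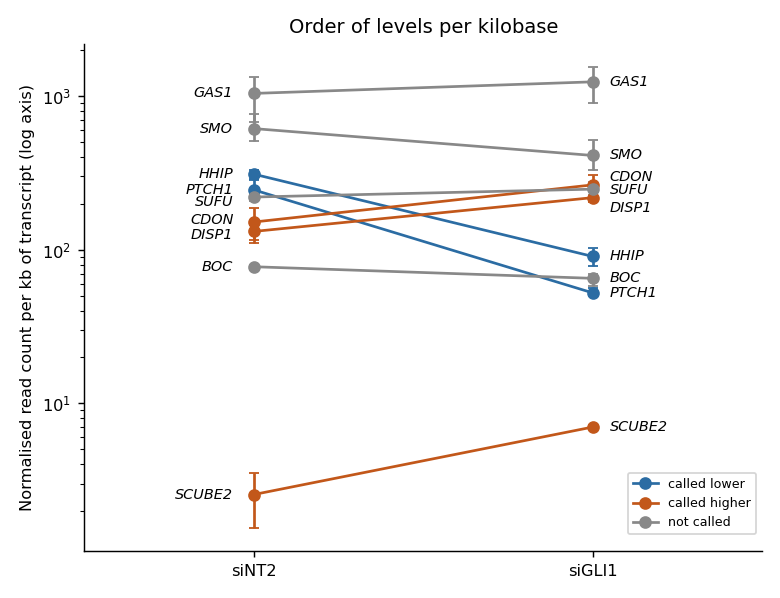
Normalised read count per kilobase of transcript (log axis) of the 9 genes in siNT2 and siGLI1. Points are group means over 3 libraries and bars run from the lowest to the highest library, with called lower in blue, called higher in orange and not called in grey. PTCH1 and HHIP drop from the middle of the order to below CDON, SUFU and DISP1.

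Genes whose profile over the 6 libraries was most like a given one were found among 12655 other genes averaging 50 or more, as the smallest root mean square distance of log2 values, each gene centred on its siNT2 mean. For PTCH1 they were SDC4, ARL2BP, FREM1, BMP8B and TRAC, at distances of 0.138 to 0.181. For HHIP they were RFX2, HEYL, ZNF395, MAGEE1 and ENC1, at 0.133 to 0.159. For SMO they were DAZAP1, ERP29, PACSIN3, PTGES2 and ARRDC1-AS1, at the smaller distances of 0.0313 to 0.0494. The last is named as an antisense gene, and whether its reads were kept apart from those of its partner was not examined. None of the 5 genes nearest to SMO was called, with log2 fold changes of -0.63 to -0.57 and limma adjusted p-values of 0.0874 to 0.135. These genes were chosen for a profile like that of SMO, so changes near its own follow from the choice.

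Around these 9 genes, 58 further pathway genes were examined, of which 53 passed the filter. Of those 53, 5 rose, 7 fell and 41 were not called, with a median log2 fold change of -0.14. The share called was 22.6%, against the 15.2% of all genes tested (7.21% higher and 8.0% lower). The lists were chosen with earlier results of these data known.

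Among 8 genes for the ligands and their release, 1 rose and 2 fell of 6 tested, against 7.21% and 8.0% of all genes. The ligand genes were barely detected. SHH was at 0 in all siNT2 libraries and at 1.08, 0 and 0.988 in siGLI1, under the limit of 3 reads (2.39 to 3.29 in deposited units) that a count of 0 allows. IHH did not exceed 5.40 in any library. DHH read 5.58 to 13.2 in siNT2 and 7.56 to 23.7 in siGLI1 (log2 fold change 0.73, limma adjusted p = 0.339). HHAT, which attaches palmitate to Hedgehog proteins, read 74.7, 57.8 and 69.4 in siNT2 and 229, 196 and 139 in siGLI1 and rose by 1.45 (limma adjusted p = 0.00692). SCUBE3, a relative of SCUBE2, moved opposite to it, from 249 ± 30.8 to 94.3 ± 13.5 (SD, n = 3 per group), a fall of 1.40 (limma adjusted p = 0.00348). Both calls held with each library left out in turn. The fall of DISP3, a relative of DISP1, by 0.97 (limma adjusted p = 0.0288) held only without siGLI1 replicate 3, with adjusted p-values of 0.0647 to 0.125 in the other 5 of these fits.

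Of 7 receptor-side genes tested, 2 fell and 0 rose, against 8.0% and 7.21% of all genes. Those that fell were the glypican GPC1, a heparan sulphate proteoglycan, by 1.36 (limma adjusted p = 0.0169), and the patched-domain gene PTCHD4 by 1.62 (limma adjusted p = 0.0112), at a mean of 16.9 in siNT2. With a pseudocount of 8 the PTCHD4 change was -0.96. GPC1 did not pass when siNT2 replicate 1 was left out (0.0543), nor without siGLI1 replicate 2 (0.0898), and PTCHD4 did not pass without siGLI1 replicate 2 (0.0555) and kept its call in 3 of the 4 such fits in which it was tested. LRP2, a large endocytic receptor that binds Hedgehog proteins, did not exceed 6.48 in any library.

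Of 27 genes of the SMO relay and its kinases, 2 rose, 3 fell and 22 were not called, so that 18.5% were called, near the 15.2% of all genes. GRK3, a kinase of activated seven-pass receptors, went from 2055 ± 316 to 4795 ± 1011 (SD, n = 3 per group) and rose by 1.21 (limma adjusted p = 0.00785), a call lost without siGLI1 replicate 2 (0.0546). The casein kinase gene CSNK1G1 rose by 1.04 (limma adjusted p = 0.0142), lost without siNT2 replicate 1 (0.0628) or siGLI1 replicate 2 (0.0761). IQCE, part of the ciliary complex that anchors the EVC proteins near SMO, fell by 1.46 (limma adjusted p = 0.00736) and held in every fit with 1 library left out. The arrestin gene ARRB2 fell by 1.13 (limma adjusted p = 0.0235), lost without siNT2 replicate 1 (0.0834), siNT2 replicate 2 (0.0603) or siGLI1 replicate 2 (0.0942). The ubiquitin ligase gene MGRN1 fell by 1.07 (limma adjusted p = 0.0313) and was called only without siGLI1 replicate 3 among those fits, the others giving 0.0518 to 0.109. GPR161, a ciliary receptor that opposes the pathway, and KIF7, a ciliary kinesin, had log2 fold changes of -0.27 and -0.54 (limma adjusted p = 0.276 and 0.178). KIF7 was called without siGLI1 replicate 3 (0.0343), and without siNT2 replicate 2 and siGLI1 replicate 3 together (0.0102). Library weights called both KIF7 (limma adjusted p = 0.00598) and GPR161 (0.0120). That fit called 4059 genes higher and 4215 lower of the 15622 tested, so a call in it is common. It gave siGLI1 replicate 2 a weight of 6.14 and siNT2 replicate 1 a weight of 4.05, against 0.29 to 0.82 for the other libraries.

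Of 11 genes for the turnover of SUFU and the GLI factors, 2 rose and 0 fell, against 7.21% and 8.0% of all genes. SPOP, an adaptor that delivers GLI factors for degradation, rose by 0.61 (limma adjusted p = 0.0478), a call kept only without siGLI1 replicate 3 among the fits that left out 1 library. The others gave 0.0704 to 0.183. FBXL17, an F-box protein that acts on SUFU, rose by 0.98 (limma adjusted p = 0.0361), lost without siNT2 replicate 1 (0.118), siNT2 replicate 2 (0.0859), siGLI1 replicate 1 (0.0854) or siGLI1 replicate 2 (0.143). The remaining GLI factor genes did not pass, with log2 fold changes of -0.49 for GLI2 (limma adjusted p = 0.0557) and 0.10 for GLI3 (0.691). In 13 of the 17 alternative fits GLI2 again did not pass. It was called with limma without siGLI1 replicate 3 (adjusted p = 0.0403) and without siNT2 replicate 2 and siGLI1 replicate 3 together (0.0201). Limma with library weights (0.00161) and DESeq2 (0.0246) called it too. GLI3 was called only by limma with library weights (0.0253). With these weights 4059 genes were called higher and 4215 lower, so such a call is common.

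**Figure D5:**
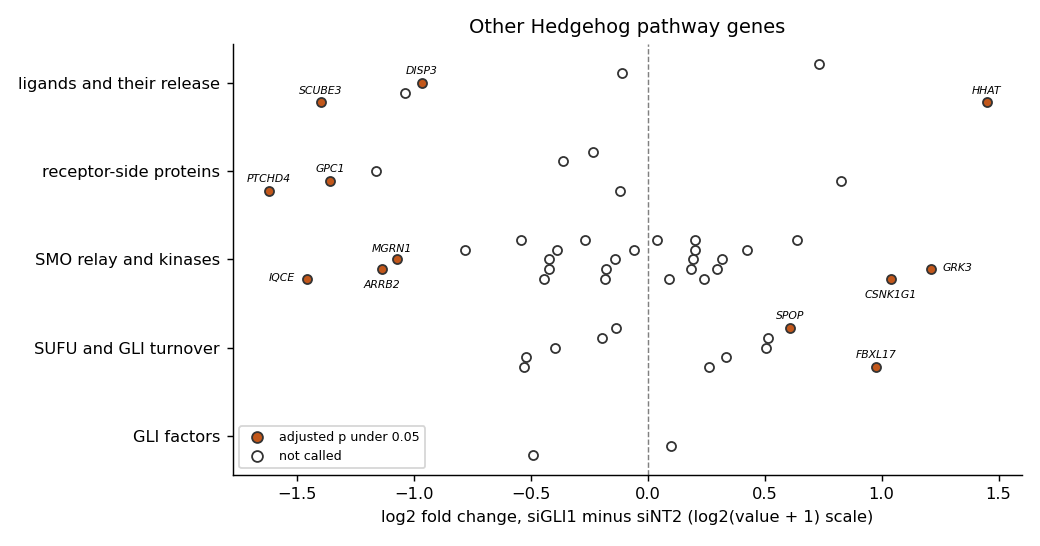
Log2 fold change (siGLI1 minus siNT2, log2(value + 1) scale) of 53 tested pathway genes in 5 lists, 1 point per gene, with vertical position inside a list used only to separate points. Orange points passed a limma adjusted p of 0.05 and carry their symbol. PTCHD4 lies furthest to the left at -1.62, though at -0.96 with a pseudocount of 8 it would lie to the right of IQCE, GPC1 and SCUBE3, and HHAT lies at 1.45.

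None of the 9 reception genes carried the heptamer GCACCTC in its annotated 3' UTR, where 8.04% of the 13174 tested genes with such a region did. At that share a group of 9 genes will often hold none, so no conclusion is drawn. The search used a single transcript per gene, and the 3' UTR of DISP1 was only 23 bases long. The heptamer was picked in an earlier analysis of these data, as one found more often among genes that fell. The sequence of the siRNA is not given in the sources used here, so the heptamer cannot be tied to it.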

How the data were processed

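The authors deposited 1 table of signal values, in which each library's read counts had been scaled by a single size factor and not by gene length. Per the submitters' processing notes, the tools were Bowtie2 2.3.3.1, Trim Galore 0.4.5, Subread 1.6.4 with featureCounts, DESeq2 2.11.40.6 and bcl2fastq, with hg19 as build. Annotation and strand setting: not given in the sources used here. In every column 100.0% of values were whole multiples of 1 read (tolerance 0.01 reads), so reads were recovered for the count tests. Limits from a count of 0 cover counting error only.

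Symbols came from RefSeq (GRCh38.p14), which named 23696 of 25702 genes. GC content, transcript length and 3' UTRs came from GENCODE release 29. Genes averaging 10 or more were fitted with limma 3.58.1 (R 4.3.3, trended eBayes, group as the only term) on log2(value + 1), adjusted by Benjamini-Hochberg at 0.05. The script was first tested on simulated counts that carried no GC trend between libraries, so that test does not cover the GC trend seen here. Alternatives were edgeR 4.0.16 quasi-likelihood and DESeq2 1.42.0 on recovered reads, pseudocounts of 0.5 and 8, no filter, quantile normalisation, GC correction (lowess span 0.3), library weights, a replicate block and leaving out libraries. Named genes were the 9 reception genes, GLI1, called genes of 5 pathway lists with 8 additions, and the 5 nearest profiles of PTCH1, HHIP and SMO. Results of 2 genes under this rule are not reported here, and lists and profiles were computed without them. The genes and lists were chosen with earlier results of these data known. Groups and replicate numbers came from the sample titles.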

Additional observations from a re-analysis of the deposited data

How the results depend on the processing

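The calls of PTCH1 and HHIP held in all 17 alternatives, between -2.28 and -2.12 and between -2.0 and -1.69. Same-numbered libraries did not all deviate together (correlations 0.49, -0.11 and -0.61 across genes), and not every library correlated best with its own number. These correlations were taken without GC correction, where siNT2 replicate 2 and siGLI1 replicate 3 went together (0.76). They therefore cannot show whether a number marks a shared batch. The description codes of same-numbered libraries share a first part, whose meaning the labels do not give, so these libraries were not treated as pairs. With the replicate block CDON (0.82), DISP1 (0.74) and SCUBE2 (1.45) lost their calls at adjusted p of 0.0903, 0.0747 and 0.0507, leaving 0 of the 9 genes called higher. DISP3 (0.0752), ARRB2 (0.0564), CSNK1G1 (0.0504), SPOP (0.140) and FBXL17 (0.0910) lost theirs too, and 462 and 508 of all genes were higher and lower, against 1127 and 1249 without it. With the GC correction SMO (-0.37) and SUFU (0.32) were called and the totals were 2426 and 2338. With the correction and the replicate block together SMO (-0.37) was called, SUFU was not (adjusted p = 0.0753), CDON, DISP1 and SCUBE2 kept their calls (0.0164, 0.00820 and 0.0153), and 1902 genes were higher and 1840 lower. Library weights, estimated gene by gene, called BOC (-0.35) and SMO (-0.56), 4 of the 9 genes lower, and 4059 and 4215 genes in all. A call with these weights is therefore common among the 15622 genes tested. Without both libraries with raised GC-rich genes SMO (-0.59) was called and the totals were 2230 and 2340. Leaving out 1 library at a time gave ranges of 0.64 to 0.99 for CDON, -0.0095 to 0.48 for GAS1, 0.62 to 0.81 for DISP1, 1.16 to 1.70 for SCUBE2 and -0.76 to -0.41 for SMO. It gave 0 to 3 genes called higher among the 9, and 280 to 1543 higher and 359 to 1704 lower among all genes. The cause of these shifts was not tested. Reads of 9 to 33 limit what can be said of SCUBE2.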

Other observations

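HHIP-AS1, the noncoding gene next to HHIP in RefSeq order, was examined after its values were seen. It read 90.0, 86.2 and 133 in siNT2 and 46.4, 33.7 and 30.6 in siGLI1, with no overlap, and left 35.8% of its siNT2 mean beside 29.1% for HHIP. It fell by 1.45 on the log2 scale (95% interval -2.04 to -0.86, limma adjusted p = 0.0106). LOC100507346, which lies over PTCH1, kept 13.5% of its siNT2 mean beside 21.3% for PTCH1. Whether reads of LOC100507346 and PTCH1 were counted by strand is not given in the sources used here. In RefSeq HHIP-AS1 lies next to HHIP without overlapping it.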
